A study of Homo sapiens with 6 samples.

Results

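The p53 response and the machinery of programmed cell death were examined in 786-O cells through 42 genes, chosen by symbol from the 62703 genes of the deposited expression table. The genes comprise 2 inhibitors of p53, 16 p53 target genes, 12 members of the BCL2 family, 3 death receptors, 4 caspases, 2 caspase activators and 3 caspase inhibitors. The 786-O line derives from a human renal carcinoma of clear cell type and has no working VHL protein. Total RNA was harvested, and RNA-seq libraries were sequenced, as 3 libraries from 786-O cells that overexpress OGT, which adds O-linked N-acetylglucosamine to nuclear and cytoplasmic proteins, and as 3 libraries from control 786-O cells, whose genotype is labelled WT. Both groups were grown in the same serum-containing medium with no further treatment in the labels, and the sources used here do not give the vector, its promoter, what the controls carried or how many clones stand behind a group. The title of the series concerns OGT, HIF-2α and ferroptosis in this carcinoma.

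The transcription factor p53 is held at a low level by MDM2, a ubiquitin ligase, and by its relative MDM4. When released, p53 activates genes of growth arrest, DNA repair and metabolism, and genes that lower the threshold for apoptosis. In the mitochondrial route, BH3-only proteins free BAX and BAK1 from anti-apoptotic relatives such as BCL2L1 and MCL1, pores form in the outer membrane, and APAF1 then activates caspase-9. In the death receptor route, FAS and the TRAIL receptors activate caspase-8. Both routes are curbed by inhibitors such as XIAP, and the death receptor route also by CFLAR.

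Levels are given as TPM, a measure of transcript abundance scaled by transcript length and by library total. A change is the difference of mean log2(TPM + 1), OGT overexpression minus control; this scale understates changes of low genes, and a gene was called at a limma adjusted p (Benjamini-Hochberg over 12645 tested genes) below 0.05. OGT itself averaged 326 ± 47.3 TPM in the OGT-overexpressing libraries and 23.1 ± 0.525 TPM in the control libraries (SD, n = 3 each). Of 8 listed markers of renal epithelium and clear cell carcinoma 7 were tested, of which PAX8, CDH2 and VIM rose, KRT18 fell, and PAX2, CDH6 and KRT8 were not called. CA9 stayed at or below 0.85 TPM in every library. Markers of other lineages, 9 in all, included ALB and CDH5, at 0 TPM in every library, and the broadly expressed lysosomal gene CD68, at 102 to 119.6 TPM in the OGT-overexpressing libraries and 60.6 to 67.2 TPM in the controls. The other 2 leukocyte markers summed to at most 0.23 TPM with OGT and at most 12.2 TPM in the controls, where the highest value was 12.2 TPM of PTPRC in control replicate 1. Markers of endothelium summed to 0.16 to 2.68 TPM in the OGT-overexpressing libraries and 0.76 to 4.77 TPM in the controls, and ALB, DES and GFAP to 1.23 to 2.64 TPM with OGT and 1.87 to 10.6 TPM in the controls. GFAP was at 1.69, 0.71 and 1.93 TPM in the OGT-overexpressing libraries, against 1.06, 4.33 and 9.16 TPM in the controls (log2 change -1.02, adjusted p = 0.182; -1.63, adjusted p = 0.0139 without control replicate 1). The part of these markers in the members' changes was not tested. Without control replicate 1, the numbers of called members were 13 higher and 5 lower (35.1% and 13.5% of those tested), against 13 and 7 with it. Of all 12327 genes tested without that library, 4694 were called higher and 1094 lower. The labels do not say whether replicates are separate cultures, and each p-value covers the spread among these samples alone, and that spread may be technical. In bulk RNA fewer cells of a type and less RNA per cell cannot be told apart.

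The promoters of the members were searched for the p53 consensus half-site, a motif of 10 letters that is its own reverse complement, and for the full p53 response element, which is made of a pair of half-sites no more than 13 bases apart. RefSeq promoter windows of 300 bases (250 before to 50 after each annotated start, GRCh38.p14) were matched by symbol for 33 of the 42 members, in 63 windows. A half-site was found for 8 of the 33 members (24.2%), against 8.06% of 27305 genes in the same promoter table, and the full element for 1 member, DDB2, against 0.0366% of those genes. A gene counted if any of its windows matched. The 27305 genes had 35116 windows, fewer per gene than the members had, so the shares are not on equal terms. The members include textbook p53 targets. The motif search used no expression values, but the members were chosen with earlier results of these data known. The part of the choice of members and of the number of windows in this share was not tested. Windows are shown for the 4 members that hold a half-site and were called in OGT-overexpressing cells, on the strand of each gene, with half-sites in capitals.
CASP8 (chr2:201257785-201258084, plus strand, higher with OGT): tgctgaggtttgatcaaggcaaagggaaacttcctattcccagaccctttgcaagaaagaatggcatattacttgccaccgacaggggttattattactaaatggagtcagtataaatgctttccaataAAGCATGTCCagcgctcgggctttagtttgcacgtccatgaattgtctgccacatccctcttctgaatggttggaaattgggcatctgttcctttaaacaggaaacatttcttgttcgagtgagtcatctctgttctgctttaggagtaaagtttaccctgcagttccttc
FAS (chr10:88991181-88991480, plus strand, higher with OGT): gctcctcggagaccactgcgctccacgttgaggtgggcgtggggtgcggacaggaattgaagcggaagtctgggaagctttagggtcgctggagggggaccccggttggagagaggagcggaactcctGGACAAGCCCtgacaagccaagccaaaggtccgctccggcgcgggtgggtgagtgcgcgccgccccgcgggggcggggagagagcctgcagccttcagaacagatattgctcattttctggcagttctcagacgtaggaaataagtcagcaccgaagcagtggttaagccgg
DDB2 (chr11:47214724-47215023, plus strand, lower with OGT): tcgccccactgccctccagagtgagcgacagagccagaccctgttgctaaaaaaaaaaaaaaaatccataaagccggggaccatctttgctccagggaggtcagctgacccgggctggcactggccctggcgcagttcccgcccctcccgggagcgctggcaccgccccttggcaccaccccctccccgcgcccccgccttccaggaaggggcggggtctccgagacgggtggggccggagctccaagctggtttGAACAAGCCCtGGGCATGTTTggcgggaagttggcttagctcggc
FDXR (chr17:74872945-74873244, minus strand, lower with OGT): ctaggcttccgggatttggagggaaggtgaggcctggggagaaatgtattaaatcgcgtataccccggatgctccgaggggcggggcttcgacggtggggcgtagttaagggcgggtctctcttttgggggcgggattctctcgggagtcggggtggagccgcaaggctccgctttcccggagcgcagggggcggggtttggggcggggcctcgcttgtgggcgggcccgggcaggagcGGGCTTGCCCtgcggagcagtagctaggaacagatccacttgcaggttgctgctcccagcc
The full element of DDB2 lies just inside the transcript, with half-sites that begin at positions 6 and 17 from the annotated start and a spacer of 1 base. Single half-sites begin at position -11 in FDXR, -121 in CASP8 and -122 in FAS. Of the 8 members with a half-site, 2 rose, 2 fell, 3 were tested and not called (AEN, BAK1 and CASP9), and SESN1 was too low to be tested. Of all tested genes 39.1% were called higher and 9.7% lower. So few members cannot show whether a half-site goes with a change. A match in these letters is not evidence of binding, and regulatory elements outside the window were not searched.

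Of the 42 members, 37 passed the filter of at least 1 TPM in at least 3 libraries, and 20 of them were called. With OGT overexpression 13 members rose and 7 fell, which is 35.1% and 18.9% of those tested, beside 39.1% of all tested genes called higher and 9.7% called lower. The share that rose was near that of all genes. The share that fell was above that of all genes, but without control replicate 3 only 3 of 36 members fell (8.33%), beside 1023 of 12383 genes, so the excess was not seen there. With any other single library left out, 13.5% to 18.9% of the tested members fell, beside 995 to 1121 of 12010 to 12393 genes. The median log2 change of the tested members was 0.21, below the median of 0.30 for all tested genes. At least 2-fold changes were called for 3 members that rose (RRM2B, XIAP and BIRC2) and 1 that fell (BIK), beside 10.7% and 1.19% of all tested genes. RRM2B passed the filter only through the OGT-overexpressing libraries, so its call was favoured by the filter. BIK reached 1 TPM in every control but with OGT only in replicate 3, and its call was lost with no filter (adjusted p = 0.0591). Members whose 3 libraries of each group did not overlap numbered 14 above and 10 below the controls, 37.8% and 27% of those tested, beside 46.2% and 12.4% of all tested genes. The 5 members that were not tested, SESN1, ZMAT3, TP53INP1, BTG2 and BCL2, reached at most 1.08 TPM in any library.

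These counts depended on how the libraries were scaled. Quantile normalization gave 6 members higher and 13 lower (16.2% and 35.1%), beside 20.2% and 17.8% of all tested genes. Centring each library on its median gave 4 higher and 15 lower (10.8% and 40.5%), beside 15.3% and 24.2%. The median change of all tested genes was 0.019 under quantile normalization and -0.085 under median centring, against 0.30 as deposited. Removal of the dependence on transcript GC content and length within each library gave 3 members higher (8.11%) and 8 lower (21.6%). These stood beside 16% and 12.8% of all 12348 genes with a reference transcript. The removal also brought every library to the same mean log2 level, and the median change of all genes was then 0.027. Its calls thus combine a shift of scale with base composition and length, and these parts were not told apart. Under all of these scalings the share of members that fell was above that of all genes, and the share that rose was below it. Of the members called as deposited, GADD45A rose and FDXR, BID and BAD fell in each of the 14 alternative analyses.

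**Figure D1:**
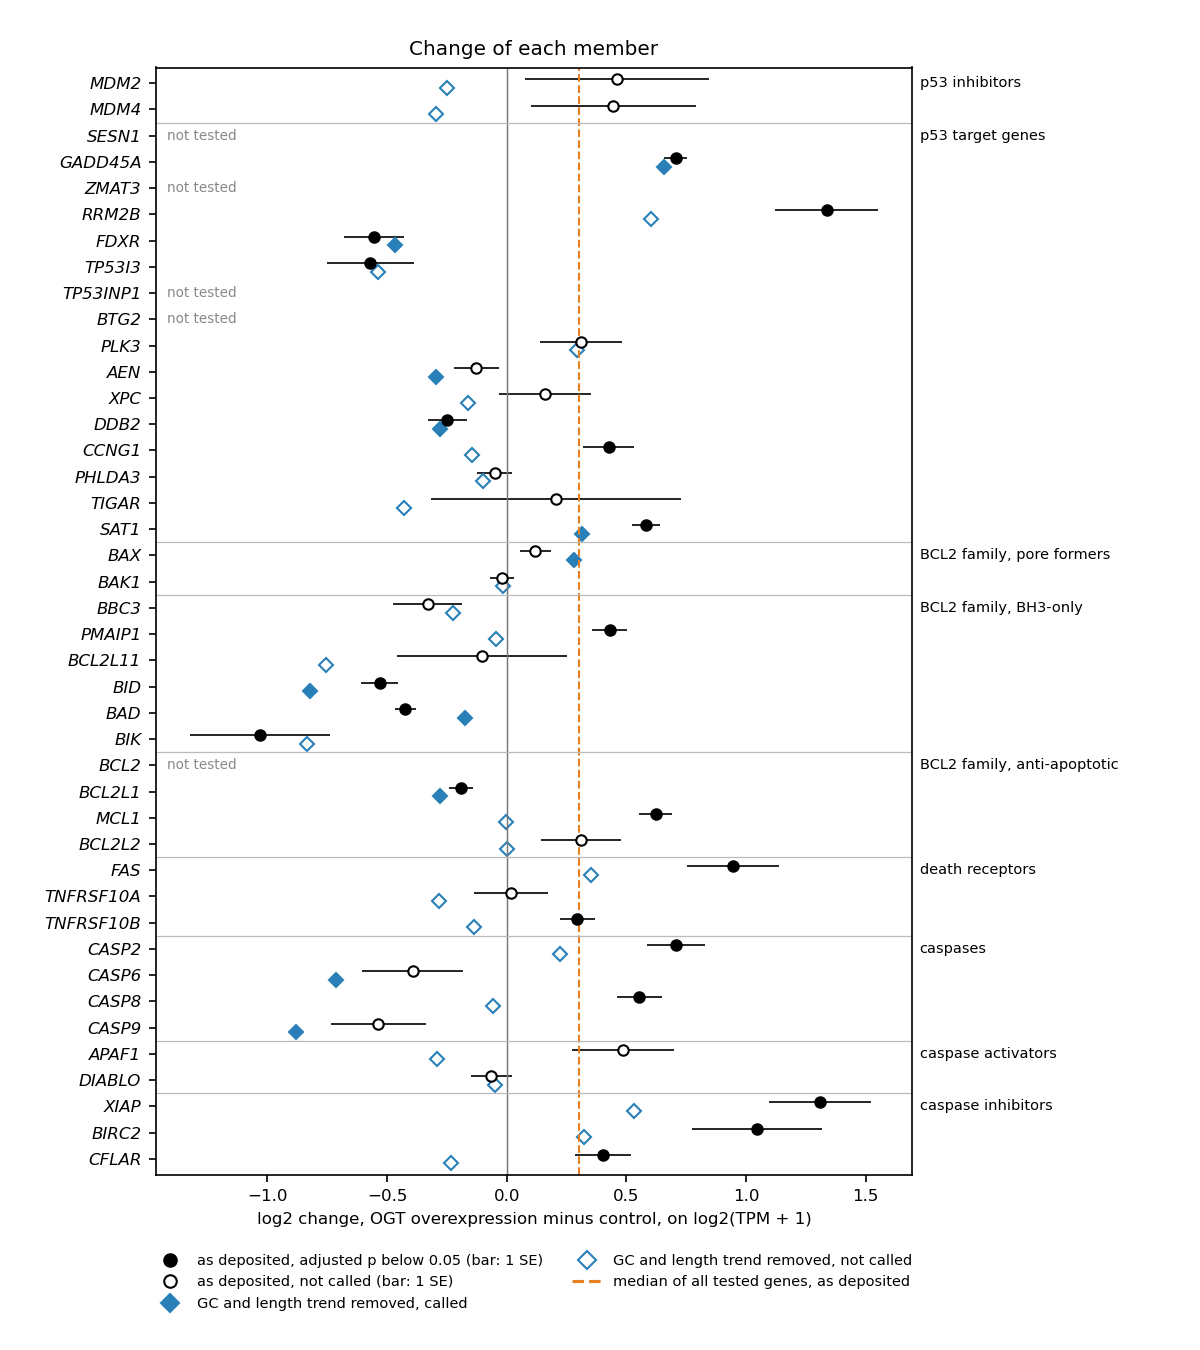
Log2 change of each member (x axis, OGT overexpression minus control) by role, as deposited (circles, bars of 1 SE) and with the per-library trend on transcript GC and length removed (diamonds); filled symbols have an adjusted p below 0.05, and the dashed line is the median of all tested genes, 0.30. As deposited 13 members are called above 0 and 7 below, beside 39.1% and 9.7% of all tested genes. Most diamonds lie left of their circles, with 3 called above 0 and 8 below, beside 16% and 12.8% of all genes with a reference transcript. The trend removal also brings every library to the same mean log2 level.

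The inhibitors of p53 were low and were not called. MDM2 was at 1.12, 2.48 and 3.55 TPM in the OGT-overexpressing libraries, against 0.49, 1.87 and 2 TPM in the controls. MDM4 was at 1, 0.88 and 2.62 TPM in the OGT-overexpressing libraries, against 0.4, 0.54 and 1.5 TPM in the controls. Both ranges overlapped between the groups, with log2 changes of 0.46 and 0.45 (adjusted p = 0.357 and 0.325) that were -0.25 and -0.29 with the GC and length trend removed. Exons of MDM2 overlap a pseudogene and antisense transcripts, and the strand of the libraries is not stated, so its level is uncertain.

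Among the p53 target genes 4 of 12 tested members rose and 3 fell, 33.3% and 25%, beside 39.1% and 9.7% of all tested genes. GADD45A, a stress sensor that slows the cell cycle and takes part in DNA repair, was at 123, 126 and 126 TPM in the OGT-overexpressing libraries, against 74.6, 79.6 and 74.5 TPM in the controls. Every OGT-overexpressing library lay above every control, and the log2 change of 0.71 (SE 0.05, adjusted p = 1.23e-04) was 0.66 with the GC and length trend removed and 0.32 after median centring. SAT1, which acetylates spermidine and spermine, was at 103, 95.8 and 103 TPM in the OGT-overexpressing libraries, against 64.2, 68.4 and 68.5 TPM in the controls, again without overlap (log2 change 0.58, adjusted p = 3.58e-04), and it was no longer called after median centring (0.19, adjusted p = 0.0578). RRM2B encodes the p53-inducible subunit of ribonucleotide reductase, which supplies nucleotides for DNA repair. It was at 2.36, 1.98 and 3.03 TPM in the OGT-overexpressing libraries, against 0.53, 0.16 and 0.41 TPM in the controls, a log2 change of 1.34 (SE 0.213, adjusted p = 0.00239). Its call was lost with the trend removed (0.60, adjusted p = 0.0659). CCNG1, which encodes cyclin G1, was at 14.3, 13.2 and 15.6 TPM in the OGT-overexpressing libraries, against 10.2, 11.1 and 10.1 TPM in the controls and rose as deposited (log2 change 0.43, adjusted p = 0.0151), with no call after median centring (0.039), quantile normalization (0.064) or trend removal, where its sign turned (-0.14, adjusted p = 0.356).

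The p53 targets that fell were FDXR, TP53I3 and DDB2. FDXR, the mitochondrial ferredoxin reductase that feeds electrons to iron-sulfur cluster and steroid synthesis, was at 14.4, 12.5 and 14 TPM in the OGT-overexpressing libraries, against 22.7, 17.5 and 21.6 TPM in the controls. The groups did not overlap, and the fall of FDXR (log2 change -0.55, SE 0.124, adjusted p = 0.00955) was also called with the trend removed (-0.47, adjusted p = 0.032). TP53I3, a quinone oxidoreductase, was at 6.77, 11.3 and 9.9 TPM in the OGT-overexpressing libraries, against 13.1, 14.2 and 15 TPM in the controls. All 3 OGT-overexpressing libraries were lower than the controls (log2 change -0.57, adjusted p = 0.0365), with the lowest value in replicate 1. Its call was lost with the trend removed (-0.54, adjusted p = 0.066), with no filter (adjusted p = 0.0852) and in 5 of the 6 leave-one-out fits, all but that without OGT replicate 2 (adjusted p from 0.0521 to 0.0924), and its change was -0.38 without OGT replicate 1. DDB2, which recognises ultraviolet damage for nucleotide excision repair and carries the full p53 element shown above, was at 34.8, 35 and 34.9 TPM in the OGT-overexpressing libraries, against 42.7, 37.6 and 44.9 TPM in the controls. The OGT-overexpressing libraries were nearly identical and lay below the controls, a log2 change of -0.25 (SE 0.0804, adjusted p = 0.039). The call of DDB2 was lost in 5 of the 6 leave-one-out fits (all but that without control replicate 2; adjusted p from 0.0757 to 0.109), with no filter (0.0833) and under a replicate block (adjusted p = 0.0707), and DDB2 was called with the trend removed (-0.28, adjusted p = 0.0327). Its partner in damage recognition, XPC, was at 5.76, 5.65 and 5.07 TPM in the OGT-overexpressing libraries, against 6.45, 4.14 and 4.1 TPM in the controls, an uncalled log2 change of 0.16 (adjusted p = 0.52).

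Other p53 targets did not pass the test as deposited. PHLDA3, which blocks AKT at the membrane, was among the higher targets, at 79.1, 71.4 and 80.6 TPM in the OGT-overexpressing libraries, against 79.2, 75.3 and 84.9 TPM in the controls (log2 change -0.05, adjusted p = 0.593), and was called lower after median centring (-0.44, adjusted p = 0.00304). The apoptosis-enhancing nuclease gene AEN was at 26.5, 24.6 and 22.3 TPM in the OGT-overexpressing libraries, against 24.9, 27 and 28.4 TPM in the controls, and its log2 change of -0.13 (adjusted p = 0.307) became -0.29 with the trend removed (adjusted p = 0.0403), -0.52 after median centring (adjusted p = 0.00514) and -0.42 under quantile normalization (adjusted p = 0.00925). The kinase gene PLK3 was at 19.5, 23.2 and 14.3 TPM in the OGT-overexpressing libraries, against 13.9, 15.8 and 14.9 TPM in the controls; its log2 change of 0.31 (adjusted p = 0.177) passed the threshold without OGT replicate 3 (0.49, adjusted p = 0.0196). TIGAR, which lowers glycolytic flux, varied widely between libraries of both groups, at 1.91, 6.09 and 0.76 TPM in the OGT-overexpressing libraries, against 2.24, 0.94 and 2.76 TPM in the controls, with a log2 change of 0.21 (SE 0.524) that changed sign under quantile normalization (-0.13), median centring (-0.18) and trend removal (-0.43). The 4 untested targets were near the floor: SESN1, a stress-induced restraint on mTORC1, lay between 0.36 and 0.86 TPM with OGT and between 0.19 and 0.82 TPM in the controls. ZMAT3, an RNA-binding zinc finger protein, lay between 0.61 and 0.97 TPM with OGT and between 0.16 and 0.69 TPM in the controls. The antiproliferative gene BTG2 ranged from 0.08 to 1.08 TPM with OGT and from 0.28 to 0.55 TPM in the controls, and TP53INP1 was at or below 0.17 TPM everywhere.

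**Figure D2:**
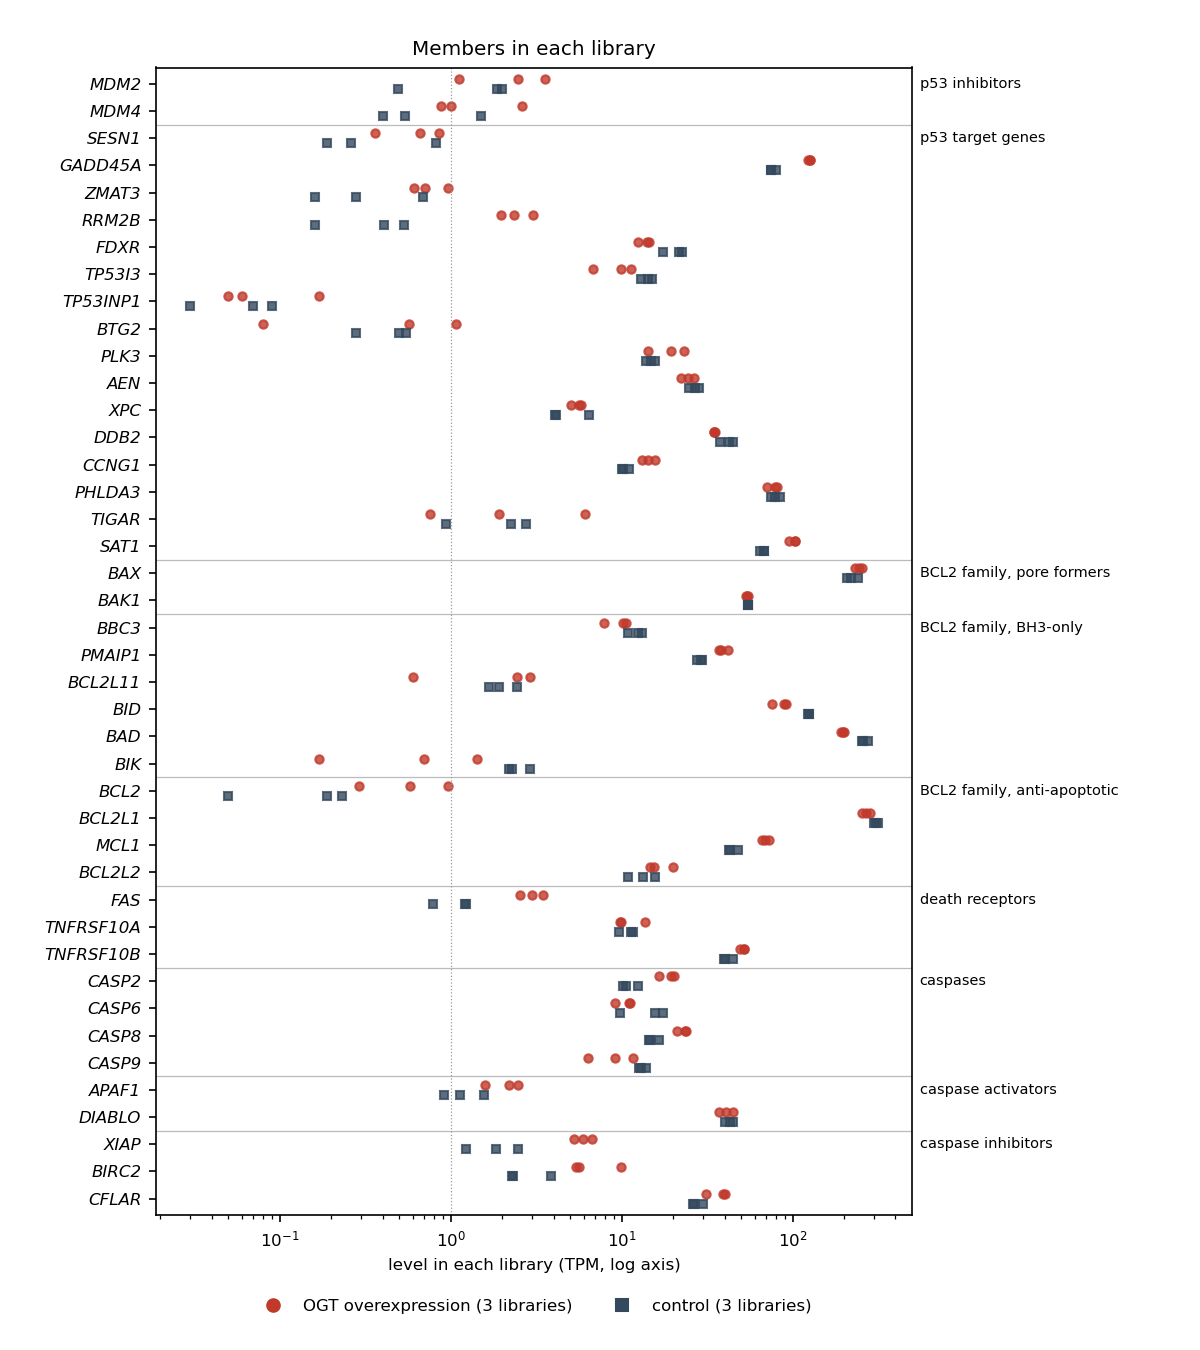
Level of each of the 42 members in each library in TPM (x axis, log scale), by role; circles are the 3 OGT-overexpressing libraries, squares the 3 control libraries, and the dotted line marks 1 TPM. Levels run from BCL2L1, BAD and BAX at the top to TP53INP1 below 0.2 TPM. The 2 groups separate for 15 members with OGT above, 1 of them not tested, and 10 with OGT below. Of the tested members these are 37.8% and 27%, beside 46.2% and 12.4% of all tested genes.

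In the BCL2 family the BH3-only genes BID, BAD and BIK fell, PMAIP1 rose as deposited, and the pore-forming genes BAX and BAK1 were not called. BID encodes the protein that caspase-8 cleaves to carry the death receptor signal to mitochondria. It was at 76.1, 89.1 and 92 TPM in the OGT-overexpressing libraries, against 123, 124 and 125 TPM in the controls, and its log2 change of -0.53 (SE 0.0761, adjusted p = 0.00154) was -0.82 with the GC and length trend removed (adjusted p = 6.05e-04). BAD, which is kept inactive by growth factor-driven phosphorylation, was at 197, 200.5 and 192 TPM in the OGT-overexpressing libraries, against 276, 259 and 256 TPM in the controls. No library of either group overlapped the other in BID or BAD, and the log2 change of BAD was -0.42 (SE 0.045, adjusted p = 4.67e-04), or -0.17 with the trend removed (adjusted p = 0.047). Exons of BAD overlap those of GPR137 on the opposite strand. BIK, whose protein is held at the endoplasmic reticulum, was low, at 0.17, 0.7 and 1.42 TPM in the OGT-overexpressing libraries, against 2.27, 2.2 and 2.92 TPM in the controls. Its log2 change of -1.03 (SE 0.291, adjusted p = 0.0238) lost its call with the trend removed (-0.83, adjusted p = 0.0703), with no filter (adjusted p = 0.0591) and when OGT replicate 1 or 2, or control replicate 3, was left out (adjusted p from 0.0614 to 0.0624), and was -1.88 with a pseudocount of 0.1.

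PMAIP1, known as NOXA, a p53 target that neutralises MCL1, was at 37.2, 41.7 and 38.4 TPM in the OGT-overexpressing libraries, against 27.7, 29.4 and 29 TPM in the controls. The groups did not overlap (log2 change 0.43, SE 0.0732, adjusted p = 0.00306), but the change was 0.15 under quantile normalization, 0.043 after median centring and -0.044 with the trend removed, none of them called. BBC3, known as PUMA, was at 10.2, 10.6 and 7.88 TPM in the OGT-overexpressing libraries, against 12.5, 11 and 13.2 TPM in the controls. Its libraries with OGT all lay below the controls, yet the change of -0.33 missed the threshold (adjusted p = 0.0979), and it passed after median centring (-0.72, adjusted p = 0.00547) and quantile normalization (-0.70, adjusted p = 0.00755). BCL2L11, known as BIM, was at 0.6, 2.93 and 2.45 TPM in the OGT-overexpressing libraries, against 1.93, 1.67 and 2.44 TPM in the controls and not called. The pore former BAX was at 254, 244 and 232 TPM in the OGT-overexpressing libraries, against 243, 221 and 209 TPM in the controls. BAX was not called as deposited (log2 change 0.12, adjusted p = 0.168), was called higher with the trend removed (0.28, adjusted p = 0.0205) or when control replicate 1 was left out (0.18, adjusted p = 0.0432), and lower after median centring (-0.27, adjusted p = 0.0123). BAK1 was at 54.6, 54 and 53.6 TPM in the OGT-overexpressing libraries, against 55.1, 54.6 and 54.7 TPM in the controls, with a log2 change of -0.02 (SE 0.0516, adjusted p = 0.778). Its libraries did not overlap, and all 6 lay between 53.6 and 55.1 TPM. BAK1 was called lower under quantile normalization (-0.22, adjusted p = 0.0146) and median centring (-0.41, adjusted p = 0.00134).

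Among the anti-apoptotic relatives MCL1 rose and BCL2L1 fell as deposited. MCL1, a short-lived protein that holds BAK1 and NOXA, was at 68.8, 72.4 and 66.5 TPM in the OGT-overexpressing libraries, against 42.8, 43.3 and 47.9 TPM in the controls, a log2 change of 0.62 (SE 0.0691, adjusted p = 5.52e-04). With the GC and length trend removed the change of MCL1 was not called (-0.0021, adjusted p = 0.986). BCL2L1, which encodes BCL-XL and was the highest of the 42 members, was at 270.3, 284 and 254 TPM in the OGT-overexpressing libraries, against 301, 306 and 315 TPM in the controls. Its log2 change was -0.19 (SE 0.0496, adjusted p = 0.0178) and -0.28 with the trend removed (adjusted p = 0.00416), and the call was lost without control replicate 3 (adjusted p = 0.0549) and in limma without trend and robust settings (adjusted p = 0.0923). BCL2L2 was at 14.7, 20.02 and 15.6 TPM in the OGT-overexpressing libraries, against 13.4, 15.6 and 10.9 TPM in the controls and not called (adjusted p = 0.163), and it shares exons with the read-through gene BCL2L2-PABPN1. BCL2 itself was too low to be tested, at 0.29, 0.58 and 0.96 TPM in the OGT-overexpressing libraries, against 0.23, 0.19 and 0.05 TPM in the controls.

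Ratios of TPM within a library do not change when a library is multiplied by a constant, although quantile normalization and trend removal do change them. They are given here without a test because they were chosen after the values were seen. The 6 BH3-only genes summed to 321, 346 and 334 TPM in the OGT-overexpressing libraries, against 443, 428 and 428 TPM in the controls, and the 4 anti-apoptotic genes to 354, 377 and 337 TPM in the OGT-overexpressing libraries, against 357, 365 and 374 TPM in the controls. The BH3-only sum was thus lower in all 3 OGT-overexpressing libraries, whereas the anti-apoptotic sums overlapped. BAD and BID, at means of 263.8 and 123.9 TPM in the controls, supplied most of the BH3-only sum. Of the other BH3-only genes BIK fell, PMAIP1 rose as deposited, and BBC3 and BCL2L11 were not called. BCL2L1, at a mean of 307.2 TPM in the controls, supplied most of the anti-apoptotic sum. The ratio of the BH3-only to the anti-apoptotic sum, which thus mainly follows BAD, BID and BCL2L1, was 0.908, 0.917 and 0.989 in the OGT-overexpressing libraries, against 1.24, 1.17 and 1.15 in the controls. The ratio of MCL1 to BCL2L1 was 0.254, 0.255 and 0.261 in the OGT-overexpressing libraries, against 0.142, 0.141 and 0.152 in the controls, which is 1.77 times as high with OGT, and the ratio of BAX to BCL2L1 was 0.941, 0.861 and 0.912 in the OGT-overexpressing libraries, against 0.806, 0.723 and 0.665 in the controls. Reference transcripts of MCL1 and BCL2L1 differ in GC content, 45.1% and 56.9%, and these ratios carry no correction for it. The log2 changes of BAD, BID and BCL2L1 were -0.42, -0.53 and -0.19 as deposited. With the trend removed they were -0.17, -0.82 and -0.28, so BAD then fell less than BCL2L1, and BID fell more. The log2 changes of MCL1 and BCL2L1 were 0.62 and -0.19 as deposited, 0.43 and -0.20 under quantile normalization, and -0.0021 and -0.28 with the trend removed, so their contrast was smaller under both.

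**Figure D3:**
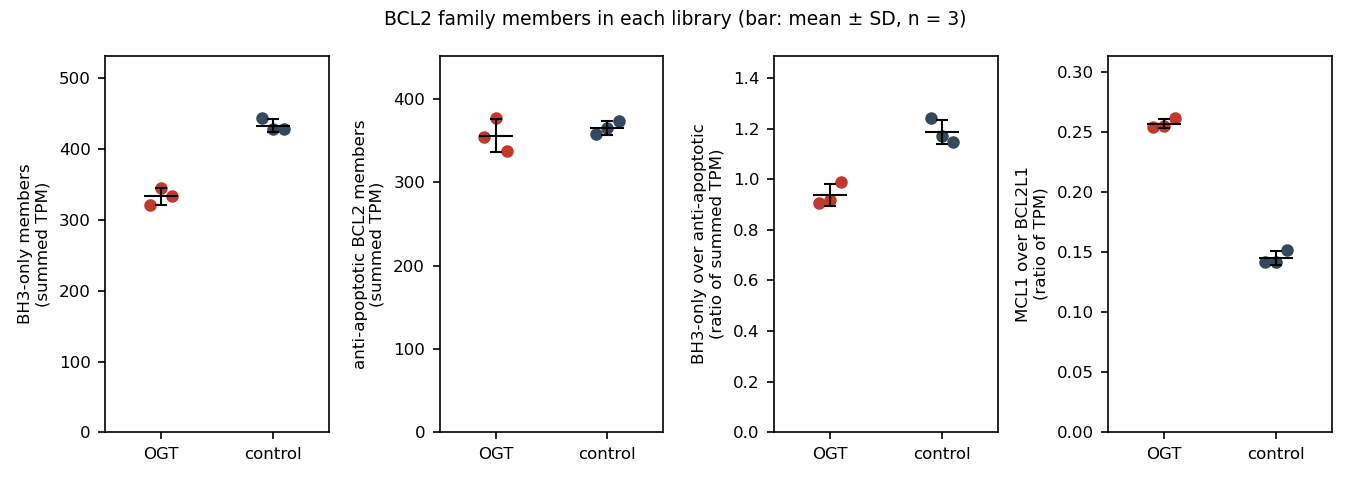
Summed TPM of the 6 BH3-only genes and of the 4 anti-apoptotic BCL2 genes, the ratio of these sums, and the ratio of MCL1 to BCL2L1, in each library (points; y axes from 0); bars are mean ± SD over 3 libraries. The BH3-only sum and its ratio are lower in the 3 OGT-overexpressing libraries, the MCL1 to BCL2L1 ratio is higher, and the anti-apoptotic sums overlap. BAD and BID supply most of the BH3-only sum, and BCL2L1 most of the anti-apoptotic sum. Sums and ratios carry no correction for base composition.

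Of the death receptors FAS and TNFRSF10B rose as deposited and TNFRSF10A was not called. FAS, the receptor for FAS ligand, was at 2.56, 3.45 and 2.99 TPM in the OGT-overexpressing libraries, against 1.23, 1.21 and 0.79 TPM in the controls. All OGT-overexpressing libraries were above the controls (log2 change 0.95, SE 0.193, adjusted p = 0.00662), and the change was 0.35 with the trend removed (adjusted p = 0.212), 0.56 after median centring (adjusted p = 0.0612) and 0.57 under quantile normalization (adjusted p = 0.053). Exons of FAS overlap ACTA2 on the opposite strand. TNFRSF10B, the TRAIL receptor DR5, was at 52.2, 52 and 49 TPM in the OGT-overexpressing libraries, against 45, 39.5 and 40.01 TPM in the controls. Its log2 change of 0.29 (adjusted p = 0.0146) was close to the median of all genes, turned to -0.094 after median centring and -0.14 with the trend removed, and lost its call under quantile normalization (adjusted p = 0.479) and without OGT replicate 1 or 2 (adjusted p = 0.0512 and 0.0523). The other TRAIL receptor, TNFRSF10A or DR4, was at 13.6, 9.81 and 9.89 TPM in the OGT-overexpressing libraries, against 9.67, 11.3 and 11.6 TPM in the controls (log2 change 0.019, adjusted p = 0.932).

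Among the caspases CASP2 and CASP8 rose as deposited. CASP8, the initiator of the death receptor route, was at 23.8, 23.5 and 21.2 TPM in the OGT-overexpressing libraries, against 16.5, 14.5 and 14.7 TPM in the controls. Its log2 change of 0.55 (SE 0.0946, adjusted p = 0.00312) was -0.058 with the trend removed (adjusted p = 0.646) and 0.17 after median centring (adjusted p = 0.184). CASP2, the initiator in the PIDDosome complex, was at 20.2, 19.5 and 16.5 TPM in the OGT-overexpressing libraries, against 10.6, 10.2 and 12.4 TPM in the controls (log2 change 0.71, adjusted p = 0.00325), without a call when the trend was removed (0.22, adjusted p = 0.175) or after median centring (0.32, adjusted p = 0.0665). Both genes were higher in every OGT-overexpressing library. CASP9, which the apoptosome activates, was at 11.6, 6.33 and 9.14 TPM in the OGT-overexpressing libraries, against 13.9, 12.7 and 13.1 TPM in the controls. It was not called (log2 change -0.54, adjusted p = 0.06) but passed the threshold with the trend removed (-0.88, adjusted p = 0.0163), after median centring (-0.93, adjusted p = 0.00884) and without OGT replicate 1 (-0.72, adjusted p = 0.0213). CASP6, an executioner, was at 9.11, 11 and 11.1 TPM in the OGT-overexpressing libraries, against 17.4, 9.85 and 15.7 TPM in the controls, with control replicate 2 apart from the other controls. Its log2 change of -0.39 (adjusted p = 0.164) passed the threshold when control replicate 2 was left out (-0.63, adjusted p = 0.0154), with the trend removed (-0.71, adjusted p = 0.0358), after median centring (-0.78, adjusted p = 0.0185) and under quantile normalization (-0.77, adjusted p = 0.0217). The caspase activators were not called as deposited: APAF1, the scaffold of the apoptosome, was at 2.49, 1.58 and 2.19 TPM in the OGT-overexpressing libraries, against 1.13, 1.56 and 0.92 TPM in the controls. DIABLO, which relieves caspases from XIAP, was at 41, 37 and 44.8 TPM in the OGT-overexpressing libraries, against 40.5, 44.6 and 43.1 TPM in the controls. DIABLO was called lower under quantile normalization (-0.31, adjusted p = 0.0405) and median centring (-0.45, adjusted p = 0.00978).

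All 3 caspase inhibitors rose as deposited, although CFLAR changed sign with the trend removed. XIAP, which binds caspases directly, was at 5.91, 6.72 and 5.3 TPM in the OGT-overexpressing libraries, against 2.48, 1.23 and 1.84 TPM in the controls. No libraries overlapped, and the log2 change of 1.31 (SE 0.213, adjusted p = 0.00259) was among the highest of the members; it was also called after median centring (0.92, adjusted p = 0.0105) but not with the trend removed (0.53, adjusted p = 0.0789). BIRC2, the ubiquitin ligase cIAP1 of the TNF receptor complex, was at 9.97, 5.65 and 5.42 TPM in the OGT-overexpressing libraries, against 2.32, 3.87 and 2.29 TPM in the controls. Its log2 change of 1.05 (SE 0.273, adjusted p = 0.0175) lost its call after median centring (0.66, adjusted p = 0.0996), quantile normalization (0.64, adjusted p = 0.114) and trend removal (0.32, adjusted p = 0.426). CFLAR, which encodes FLIP, the decoy that blocks caspase-8, was at 31.1, 40.4 and 39.2 TPM in the OGT-overexpressing libraries, against 26.1, 30.1 and 26.6 TPM in the controls. The groups were separate but close (log2 change 0.40, adjusted p = 0.0263), and CFLAR was no longer called when control replicate 1 or 3, or OGT replicate 2 or 3, was left out (adjusted p from 0.0657 to 0.0859) or with no filter (0.0642). The change of CFLAR was 0.013 after median centring (adjusted p = 0.947), 0.11 under quantile normalization (adjusted p = 0.503) and -0.23 with the trend removed (adjusted p = 0.258). Antisense and overlapping transcripts are annotated on CFLAR exons, which makes its level uncertain. Exons of further members overlap other genes too, among them XPC, CASP6, CASP9, TNFRSF10B and TP53I3 on the opposite strand. Exons of TIGAR and DIABLO overlap protein-coding genes on the same strand, so such levels are uncertain as well. The 3 caspase inhibitors summed to 47, 52.8 and 49.9 TPM in the OGT-overexpressing libraries, against 30.9, 35.2 and 30.7 TPM in the controls, higher in every OGT-overexpressing library. CFLAR, at means of 36.9 TPM with OGT and 27.6 TPM in the controls, supplied most of these sums. They carry no correction for scaling or base composition.

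Further genes of both pathways came from lists drawn up beside the members. Of 58 tested genes among 66 other p53 regulators and targets, 27 rose and 3 fell, 46.6% and 5.17%, beside 39.1% and 9.7% of all tested genes (median log2 change 0.45, against 0.30). With the GC and length trend removed the counts were 12 and 6, 20.7% and 10.3%, beside 16% and 12.8% of all genes (median -0.016, against 0.027). Median centring gave 10 higher and 15 lower, 17.2% and 25.9%, near the 15.3% and 24.2% of all genes. Quantile normalization gave 12 higher and 11 lower, 20.7% and 19%, near the 20.2% and 17.8% of all genes. The genes with the smallest adjusted p were the desmosomal apoptosis effector PERP, the kinase gene PLK2 and the replication clamp PCNA. PERP was at 17, 17.2 and 17.1 TPM in the OGT-overexpressing libraries, against 6.42, 7.04 and 6.68 TPM in the controls, a log2 change of 1.23 (adjusted p = 1.78e-04). PLK2 was at 51.7, 55.7 and 49.2 TPM in the OGT-overexpressing libraries, against 29.4, 26.2 and 28.3 TPM in the controls (log2 change 0.88) and PCNA at 79, 70.7 and 78.1 TPM in the OGT-overexpressing libraries, against 42.7, 43.1 and 47.5 TPM in the controls (log2 change 0.76). With the trend removed the changes of these 3 genes were 0.50, 0.42 and 0.48 (adjusted p = 0.0121, 0.00552 and 0.00363). Those that fell were PGPEP1, IKBIP and the acetyltransferase gene KAT5 (log2 changes -0.73, -0.49 and -0.23, adjusted p = 0.0233, 0.0242 and 0.0412). CDKN1A, the p21 cell cycle inhibitor and a classical p53 target, was at 134, 132 and 118 TPM in the OGT-overexpressing libraries, against 112, 109.7 and 119 TPM in the controls, with overlap between the groups and no call (log2 change 0.17, adjusted p = 0.0665). CDKN1A was singled out after its values were seen.

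Of 24 tested genes among 27 other apoptosis genes, 10 rose and 3 fell as deposited, 41.7% and 12.5%, near the 39.1% and 9.7% of all tested genes (median log2 change 0.28, against 0.30). With the trend removed 4 were higher and 3 lower, 16.7% and 12.5%, beside 16% and 12.8% of all genes (median -0.14, against 0.027). Median centring gave 4 higher and 7 lower, 16.7% and 29.2%, beside 15.3% and 24.2% of all genes. Quantile normalization gave 6 of each, 25% both ways, beside 20.2% and 17.8% of all genes. TNFSF10, which encodes TRAIL, the ligand of TNFRSF10A and TNFRSF10B, was at 39.96, 35.4 and 40.6 TPM in the OGT-overexpressing libraries, against 11.4, 14.4 and 9.89 TPM in the controls. That rise, 3.25-fold in means with a log2 change of 1.63 (SE 0.14, adjusted p = 2.20e-04), stood beside receptor changes of 0.019 and 0.29, and was 1.14 with the trend removed (adjusted p = 0.00191). PARP1, the DNA break sensor cleaved by caspases, was at 60.3, 57.6 and 59.2 TPM in the OGT-overexpressing libraries, against 35.4, 37.2 and 38.7 TPM in the controls (log2 change 0.66, 0.22 with the trend removed). The outer membrane channel gene VDAC2 was at 162, 147 and 172 TPM in the OGT-overexpressing libraries, against 99.5, 102 and 106 TPM in the controls (log2 change 0.64, 0.33 with the trend removed). The 3 that fell were the mitochondrial protease gene HTRA2, the nuclease gene ENDOG and the death receptor adaptor gene FADD. HTRA2 was at 72.2, 72.6 and 74 TPM in the OGT-overexpressing libraries, against 109, 93.1 and 105 TPM in the controls (log2 change -0.48, -0.48 with the trend removed). ENDOG was at 23.2, 23.6 and 29.7 TPM in the OGT-overexpressing libraries, against 38.9, 40.1 and 42.9 TPM in the controls (log2 change -0.66, -0.42 with the trend removed), and FADD had a log2 change of -0.26 (-0.20 with the trend removed).

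The changes of the members varied with the base composition of their transcripts, as did those of all tested genes. Across the 37 tested members, which share the same 6 libraries, the Spearman correlation of log2 change with GC content was -0.73, and with transcript length 0.44, beside -0.47 and 0.39 across all tested genes with a reference transcript. Of 13 tested members of at most 45% GC, 9 rose and the other 4 were not called (median log2 change 0.49), beside 55.7% of all tested genes in that class called higher and 2.82% lower (median 0.69). Of 20 members between 45% and 60% GC, 4 rose and 5 fell (median -0.057), beside 36.6% and 10.4% of all genes in that class (median 0.25). Of 4 members above 60% GC, FDXR and BAD fell and PLK3 and BBC3 were not called (median -0.38), beside 18.5% and 20.6% of all genes in that class (median -0.00038). The part of base composition and length in the members' changes was not tested, and the trend removal also brought every library to the same mean log2 level. The tested members had a median GC content of 50% and a median length of 2640 bases, against 50.1% and 3030 bases for all tested genes. With the per-library trend on GC and length removed, GADD45A and SAT1 of the 13 members that rose and FDXR, DDB2, BID, BAD and BCL2L1 of the 7 that fell were called the same way, BAX was called higher in addition, and AEN, CASP6 and CASP9 were called lower in addition. The reference transcript need not be the one these cells express, so single corrected values depend on that choice, long ones included, such as CFLAR (14672 bases) and MDM2 (12633 bases).

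**Figure D4:**
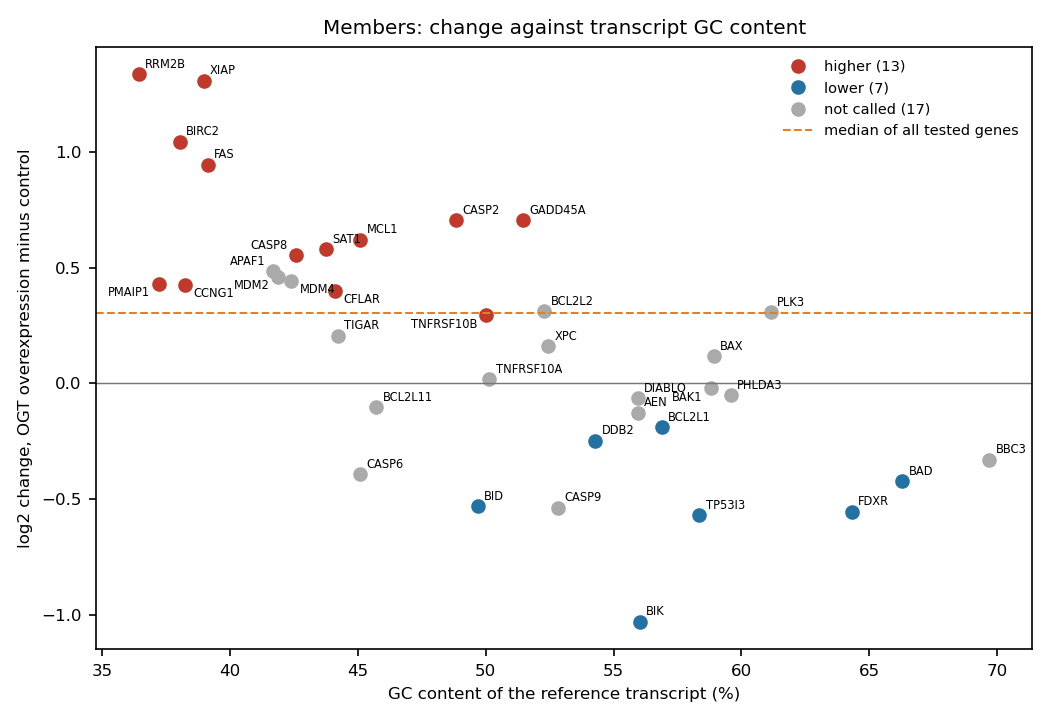
Log2 change of the 37 tested members as deposited (y axis, OGT overexpression minus control) against GC content of the reference transcript (x axis, %); colours mark the 13 members called higher, the 7 called lower and the 17 not called, and the dashed line is the median of all tested genes, 0.30. Members of at most 45% GC that were called all lie above 0, and the called members above 60% GC lie below 0 (Spearman -0.73, n = 37 genes).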

How the data were processed

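RNA-seq of 6 libraries of 786-O cells, 3 overexpressing OGT and 3 controls, was analysed from the TPM values that the authors deposited in one table of 62703 genes with Ensembl gene IDs and symbols. No source used here gives the aligner or counter. Per the submitters' processing notes the builds were GRCm38 and mm10, which are mouse builds, whereas the gene IDs are human. TPM keeps no depth, so sequencing depth is unknown. TPM is scaled to a fixed total, so a rise of some genes lowers the share left to others.

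A gene was tested if 3 or more libraries had at least 1 TPM of it. The test was limma's (version 3.58.1, R 4.3.3) on log2 of TPM plus a pseudocount of 1 (moderated test with trend and robust settings, two-sided, Benjamini-Hochberg adjustment, threshold 0.05). The script was tested on simulated data. GC content and length came from the longest GENCODE transcript of each gene, and promoters from RefSeq (GRCh38.p14). Removal of the GC and length trend also brought each library to the same mean log2 level. All 42 members were named, OGT and the cell type markers as checks, and from each further list up to 3 genes with the smallest adjusted p in each direction. The members and lists were chosen with earlier results of these data known. Alternatives were another pseudocount, other filters, quantile normalization, median centring, removal of the GC and length trend, limma without trend and robust settings, a replicate block and leaving out each library. The result of 1 gene of the further lists is not reported here.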

Additional observations from a re-analysis of the deposited data

How the results depend on the processing

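Quantile normalization gave 6 members higher and 13 lower (median -0.032), 12 and 11 of the other p53 genes and 6 and 6 of the other apoptosis genes, and turned the log2 changes of PLK3 (-0.020), XPC (-0.25), TIGAR (-0.13), BCL2L2 (-0.032) and TNFRSF10A (-0.36). Median centring gave 4 and 15 members (median -0.18), 10 and 15 other p53 genes and 4 and 7 other apoptosis genes, and turned PLK3 (-0.079), XPC (-0.23), TIGAR (-0.18), BAX (-0.27), BCL2L2 (-0.077), TNFRSF10A (-0.37) and TNFRSF10B (-0.094). Removal of the GC and length trend called 3556 genes in all, 3 members higher (median -0.16), 12 and 6 other p53 genes and 4 other apoptosis genes higher, and turned MDM2 (-0.25), MDM4 (-0.29), XPC (-0.16), CCNG1 (-0.14), TIGAR (-0.43), PMAIP1 (-0.044), MCL1 (-0.0021), TNFRSF10A (-0.28), TNFRSF10B (-0.14), CASP8 (-0.058), APAF1 (-0.29) and CFLAR (-0.23). No filter gave 4 members (9.52%) and 0 other p53 genes lower, beside 954 of 25005 genes tested. A mean of at least 5 TPM gave a member median of 0.019. Limma without trend and robust settings gave 4 members lower (10.8%), beside 1046 of 12645 genes. The cause of these shifts was not tested.

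Leaving out 1 library gave 10 to 13 members higher, 3 to 7 lower (3 without control replicate 3), 1 to 2 other p53 genes lower and a member median between 0.11 and 0.28. These were 27.8% to 35.1% of tested members higher and 8.33% to 18.9% lower. In the same fits 3684 to 4694 of all genes were called higher and 995 to 1121 lower, with 12010 to 12393 tested. The log2 change crossed 0 for TNFRSF10A (-0.13 to 0.093), TIGAR (-0.34 to 0.66), BCL2L11 (-0.35 to 0.30), PHLDA3 (-0.091 to 0.0030) and DIABLO (-0.13 to 0.0056). Samples that share a replicate number did not deviate together (correlations -0.0194, 0.00264 and 0.0166, with 1 of 6 samples closest to its own number). A replicate block called 5473 of 12645 genes, 4382 higher and 1091 lower, with 13 members higher (35.1%) and 6 lower (16.2%). Depth is unknown for TPM, so the counting error of low members such as MDM4, RRM2B and BIK cannot be given.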
